A study of Sus scrofa with 12 samples.

Results

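The genes examined here were FASN, ELOVL6, PC, FADS1, FADS2, ACSL1, ACSL6, CPT1A and ACAA2, which make, lengthen, desaturate, activate and oxidise fatty acids. They were taken by gene symbol from the array's platform annotation, using probe sets with 1 symbol only. Each gene was represented by its probe set with the highest mean over all 12 arrays. The 9 genes are among 6765 genes so named, and 17 probe sets among the 23999 tested carry their symbols. All 9 were measured, and no filter on low values was applied.

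RNA from pig (Sus scrofa) cells was hybridised to the Affymetrix porcine genome array, which reads each transcript with a probe set of short oligonucleotides. There were 4 groups of 3 arrays. MA were mature adipocytes isolated from fat tissue, and DFAT were the dedifferentiated cells obtained from MA in ceiling culture, where buoyant fat cells attach to the upper wall of a filled flask. GC were granulosa cells, which surround the oocyte in ovarian follicles, and DFOG were the cells that GC gave rise to during culture in vitro. Both cultured groups were harvested at semiconfluence. No genetic change or drug is named for any group, and the labels give no animal, age, passage or pooling. Isolated cells are set against cultured cells in both lineages, so loss of the specialised state and any further effect of culture cannot be told apart. In bulk RNA, fewer cells of a type and less RNA per cell cannot be told apart either.

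Fat cells build fatty acids from glucose carbon. Pyruvate carboxylase and citrate export bring acetyl groups to the cytosol, fatty acid synthase joins them into palmitate, and elongases and desaturases modify the chain. Before a fatty acid can be esterified, desaturated or burned it must be joined to coenzyme A by an acyl-CoA synthetase. Oxidation in mitochondria is gated by carnitine palmitoyltransferase and ends with a thiolase that releases acetyl-CoA. In adipose tissue synthesis and storage dominate, while in the follicle granulosa cells handle fatty acids beside steroid production.

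Values are log2 expression values as the authors deposited them, so a difference of 1 is a 2-fold change on the array. No detection calls came with the values. A low level may therefore be background, and a change that starts or ends there is understated. Replicates 2 and 3 of DFOG were nearly identical (the differences between them had an SD of 0.07, against 0.31 to 0.62 in the 11 other pairs within groups). They were counted as 1 sample, their mean, so that DFOG has n = 2 and every other group n = 3. The labels call the arrays biological replicates without naming cultures or animals, so the spread behind each p-value may be partly technical. A change counts as passed at a limma adjusted p under 0.05 over all 23999 probe sets.

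The labels were checked against marker genes. The 4 measured adipocyte markers averaged 12.31 to 12.38 in the MA samples and 6.32 to 7.44 in DFAT. The 7 granulosa markers averaged 8.64 to 8.81 in GC against 5.46 to 5.76 in MA, although the defining granulosa genes FOXL2 (5.56 ± 0.15, SD, n = 3) and CYP19A1 (4.95 ± 0.15, SD, n = 3) lay no higher in GC than in the other groups. INHBA was 7.97 in GC and 7.90 in MA and did not pass either, so 4 of the 7 passed as higher in GC. INHA (14.64) and HSD17B1 (13.72) had the highest levels among them in GC. Macrophage markers, 6 of 9 listed being measured, averaged 5.49 to 6.71 in MA and 4.24 to 4.41 in DFAT. Stromal fibroblast markers, 4 of 6, averaged 7.77 to 9.10 in MA, 10.61 to 11.11 in DFAT, 5.29 to 5.65 in GC and 9.48 to 9.53 in DFOG. For the actin control, the signal near the 3′ end minus that near the 5′ end, which is larger for degraded RNA, ranged from 1.5 to 2.47 over the MA samples and from 0.33 to 0.97 over DFAT. In GC it ranged from 0.72 to 1.76, and in DFOG from 0.15 to 0.62. The part of these markers and of RNA quality in the results below was not tested, apart from a fit with the actin difference as a covariate. Centring the arrays on their spiked poly-A controls moved the median change of all probe sets from -0.07 to 0.46 for DFAT against MA, from -0.02 to -0.65 for DFOG against GC, from -0.05 to 1.12 for the difference between both changes and from 0.07 to -1.03 for MA against GC. That centring turned the 3765 higher and 3941 lower probe sets of the first comparison into 6677 and 1591, the 2958 and 3013 of the second into 1268 and 8091, the 2775 and 2818 of the third into 13728 and 897, and the 4976 and 4737 of the fourth into 1458 and 17722. The changes given below are thus relative ones, set against the remaining transcripts of each sample.

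In fat cells taken into culture, 8 of the 9 genes changed. FASN, ELOVL6, PC, ACSL1 and ACAA2 fell, FADS1, FADS2 and CPT1A rose, and ACSL6 did not pass. Of all probe sets 32.1% passed this test (15.7% higher, 16.4% lower), as did 41.1% of the named genes (20.7% higher, 20.4% lower). The median change was -2.84 over the 9 genes and -0.02 over all named genes. In granulosa cells taken into culture 3 of 9 changed, ACSL1 and CPT1A upward and ACSL6 downward, where 24.9% of all probe sets (12.3% higher, 12.6% lower) and 30.6% of the named genes (17.3% higher, 13.4% lower) passed. The median was 0.14, against 0.03 over all named genes. With all 12 arrays as separate samples and the replicate number as a block, FADS1 and ACAA2 passed too, 5 of 9 genes. The shares above belong to the reported fit, so they cannot be set against this count. Same-numbered GC and DFOG arrays deviated together (r = 0.604, 0.514 and 0.355), but this fit counts the near-identical DFOG arrays separately. The 9 genes were picked with earlier results of these data known, so these counts describe them and are not a test of the pathway.

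**Figure D1:**
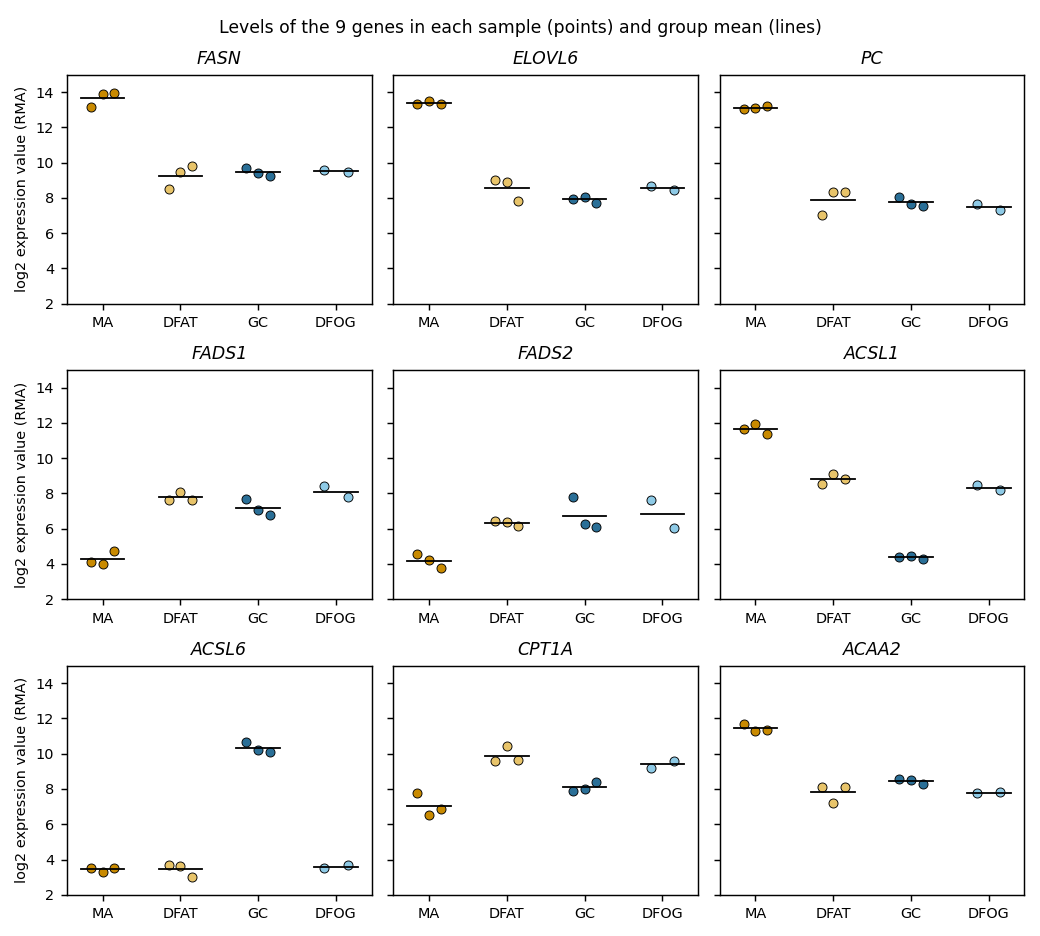
The log2 expression value (vertical axis) of each of the 9 genes is plotted for every sample (points) with the group mean (line) in MA, DFAT, GC and DFOG; the second DFOG point is the mean of replicates 2 and 3. FASN, ELOVL6 and PC stand highest in MA, and ACSL6 stands high in GC alone. ACSL1 is at 4.27 to 4.47 in GC but at 8.18 or more in every other sample.

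Synthesis was described first, beginning with PC, the mitochondrial enzyme that turns pyruvate into oxaloacetate and so supplies the citrate from which cytosolic acetyl-CoA is drawn. Its levels were 13.04, 13.08 and 13.22 in MA and 7.05, 8.35 and 8.31 in DFAT. The MA samples were tightly grouped and far above all DFAT samples, of which replicate 1 was the lowest. PC changed by -5.21 ± 0.31 (SE, limma adjusted p = 3.36e-07), a 37.0-fold fall on the array. In the granulosa lineage it was 8.04, 7.65 and 7.54 in GC and 7.64 and 7.30 in DFOG. The groups overlapped, and the change of -0.28 ± 0.34 (SE) did not pass (limma adjusted p = 0.661). PC was thus high in MA, while DFAT, GC and DFOG overlapped in pairs.

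FASN is the multifunctional enzyme that assembles palmitate from acetyl and malonyl units. It measured 13.18, 13.88 and 13.95 in MA and 8.52, 9.46 and 9.83 in DFAT. The lowest MA sample lay well above the highest DFAT sample. The change was -4.40 ± 0.31 (SE, limma adjusted p = 1.36e-06), or 21.1-fold lower. GC stood at 9.68, 9.42 and 9.26 and DFOG at 9.57 and 9.49. These 2 groups overlapped with each other and with DFAT, and the difference of 0.08 ± 0.35 (SE) had a 95% interval of -0.69 to 0.85 (limma adjusted p = 0.924).

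The 3 further probe sets of FASN fell in DFAT as well, with changes of -3.30, -3.53 and -1.01 (limma adjusted p = 5.13e-05, 6.16e-06 and 0.00523). The smallest of these changes came from the probe set with the lowest level, 6.13 ± 0.09 (SD, n = 3) in MA. None of the 3 passed between DFOG and GC, where they differed by 0.10 to 0.26. In them GC replicate 1 and DFOG replicate 1 were higher than the other samples of their groups.

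ELOVL6 adds a carbon pair to palmitate and related saturated chains. It was at 13.32, 13.51 and 13.34 in MA and at 9.0, 8.88 and 7.81 in DFAT. Again every MA sample exceeded every DFAT sample, with DFAT replicate 3 the lowest. The change was -4.83 ± 0.27 (SE, limma adjusted p = 2.49e-07), a 28.4-fold fall. In GC it was 7.96, 8.07 and 7.73, and in DFOG 8.69 and 8.45. These groups did not overlap, DFOG being the higher, but the change of 0.65 ± 0.31 (SE) did not pass (limma adjusted p = 0.159), except without DFAT replicate 3 (limma adjusted p = 0.0200), which left the difference itself as it was. DFAT overlapped both.

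All 4 probe sets of ELOVL6 fell in DFAT, with changes of -4.77 to -5.37 in the 3 further ones, and none passed between DFOG and GC, where 1 had the opposite sign (-0.27).

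**Figure D2:**
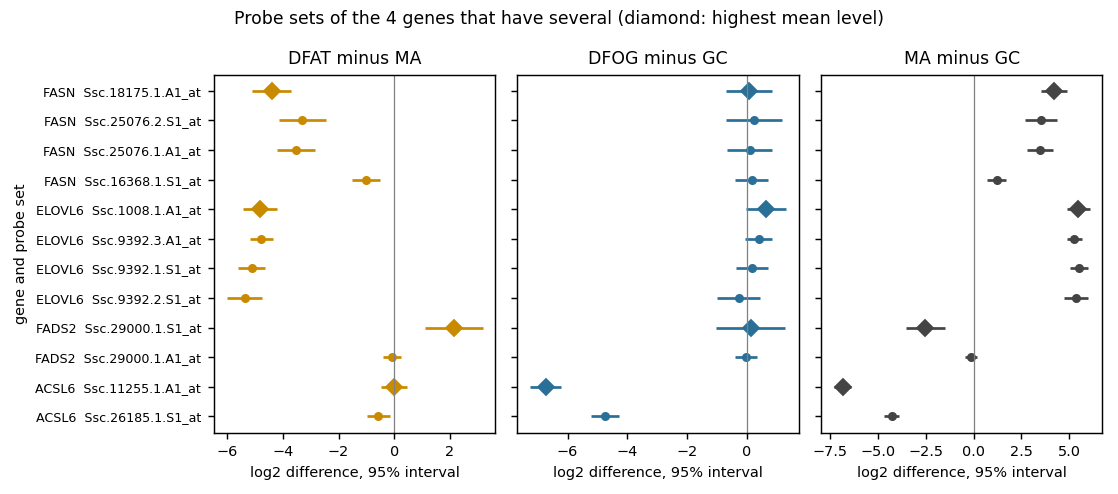
Log2 differences with 95% intervals (horizontal axis) are shown for every probe set of the 4 genes with several, in DFAT minus MA, DFOG minus GC and MA minus GC; diamonds mark the one that represents the gene. All 4 FASN and all 4 ELOVL6 probe sets point the same way in DFAT minus MA and in MA minus GC, while the second FADS2 probe set lies at -0.08, -0.02 and -0.14.

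The partners of these enzymes were read from lists chosen with earlier results known. Each list count below stands against the shares over all named genes. In DFAT these were 20.7% higher and 20.4% lower, and in DFOG 17.3% higher and 13.4% lower. Counts near these shares say nothing particular about a list. Of the acetyl-CoA and NADPH supply list 5 of 7 measured genes fell in DFAT and none rose (median -1.50). Besides PC they were ACSS2, which makes acetyl-CoA from acetate (-2.95 ± 0.28, SE), the NADPH-producing malic enzyme ME1 (-2.09 ± 0.22), the cytosolic isocitrate dehydrogenase IDH1 (-1.50 ± 0.24) and citrate synthase CS (-1.28 ± 0.19). In DFOG PGD, of the pentose phosphate pathway, rose by 0.99 ± 0.22 (SE) and IDH1 fell by 1.38 on the log2 scale, while the other 5 did not pass. Of the synthesis list 3 of 5 genes fell in DFAT and none of 5 passed in DFOG. ACACA, the acetyl-CoA carboxylase that makes malonyl-CoA, went from 6.09 ± 0.64 (SD, n = 3) in MA to 4.64 ± 0.34 (SD, n = 3) in DFAT (limma adjusted p = 0.00462), and the mitochondrial malonyltransferase MCAT changed by -0.53 ± 0.18 (SE). In elongation 2 of 5 fell and 2 rose in DFAT, with the ketoreductase HSD17B12 at -1.90 ± 0.21 (SE) and ELOVL1, which elongates very long saturated chains, at 0.97 ± 0.15 (SE). ELOVL1 also rose in DFOG, by 1.38 ± 0.17 (SE).

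FADS1 and FADS2 are the front-end desaturases that turn dietary linoleic and linolenic acid into longer polyunsaturated fatty acids such as arachidonic acid. Their genes lie on the same chromosome in the RefSeq annotation of Sscrofa11.1, with 2 other annotated genes between them. FADS1 was at 4.13, 4.03 and 4.73 in MA and at 7.64, 8.07 and 7.61 in DFAT. All DFAT samples exceeded all MA samples. FADS1 rose by 3.48 ± 0.28 (SE, limma adjusted p = 3.43e-06), which is 11.1-fold, and none of the settings run ended this call. In the granulosa lineage it was 7.67, 7.07 and 6.79 in GC and 8.44 and 7.77 in DFOG.

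The GC and DFOG levels of FADS1 did not overlap, by a margin of 0.10. The difference of 0.93 ± 0.31 (SE) had a 95% interval of 0.24 to 1.62 and missed the threshold (limma adjusted p = 0.0516). It passed under several settings, among them without GC replicate 1 (1.18, limma adjusted p = 0.0166) and without DFOG replicate 3 (0.94, limma adjusted p = 0.0498). It also passed without MA replicate 3 (limma adjusted p = 0.0449), which left the difference itself as it was. The difference was 1.26 without DFOG replicates 2 and 3 but 0.60 without DFOG replicate 1. Over all settings it ranged from 0.29 to 1.26, with limma adjusted p of up to 0.592. With all arrays counted as separate samples it also passed (0.82, limma adjusted p = 0.0404). The order of the groups was MA, GC, DFAT and DFOG from low to high, with DFAT overlapping both neighbours.

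FADS2 was at 4.54, 4.22 and 3.77 in MA and at 6.43, 6.40 and 6.13 in DFAT. These groups did not overlap either, and FADS2 rose by 2.14 ± 0.47 (SE, limma adjusted p = 0.00434), or 4.41-fold. With the actin 3′ minus 5′ difference as a covariate the change was 1.2 and did not pass (limma adjusted p = 0.262). GC stood at 7.78, 6.26 and 6.11 and DFOG at 7.65 and 6.07. In both groups replicate 1 was the highest, and the groups overlapped. The actin difference was 0.72 in GC replicate 1 against 1.76 and 1.56 in the other GC samples, and 0.15 in DFOG replicate 1 against 0.62 in the other DFOG sample.

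The FADS2 change of 0.14 ± 0.52 (SE) between DFOG and GC did not pass (limma adjusted p = 0.906) and was -0.65 without DFOG replicate 1. A second FADS2 probe set lay between 3.57 and 4.18 on all arrays and passed no comparison. The rise of FADS2 in DFAT, and its difference between MA and GC, thus rest on 1 probe set.

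Of the other desaturation genes, SCD, which puts the first double bond into stearate and palmitate, fell in DFAT and rose in DFOG. It measured 12.79, 13.40 and 13.62 in MA against 10.98, 11.72 and 11.88 in DFAT (limma adjusted p = 0.000458). In GC it averaged 8.23 ± 0.25 (SD, n = 3), and both DFOG samples were higher, at 9.46 and 9.45 (limma adjusted p = 0.0116). The changes of -1.74 and 1.23 differed in the interaction test, which asks whether both cultures changed by the same amount (-2.97 ± 0.41, SE, limma adjusted p = 0.000336). CYB5A, the cytochrome that passes electrons to desaturases, fell in both cultures, at -1.92 ± 0.16 (SE) in DFAT and -1.30 ± 0.18 (SE) in DFOG. In all, 2 of 6 genes of the list rose and 2 fell in DFAT, and 2 rose and 1 fell in DFOG.

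In activation, ACSL1 was higher in MA and ACSL6 higher in GC, while another synthetase, ACSL4, stood at 10.74 in MA and 11.02 in GC. ACSL1, the long-chain acyl-CoA synthetase typical of fat, liver and muscle, was at 11.63, 11.92 and 11.40 in MA and at 4.41, 4.47 and 4.27 in GC. The groups were separated by 6.93 between their nearest samples. ACSL6, a synthetase known from brain and red cell precursors, showed the reverse, with 3.54, 3.31 and 3.50 in MA and 10.65, 10.22 and 10.08 in GC. The MA minus GC difference was 7.27 ± 0.19 (SE, limma adjusted p = 9.81e-10) for ACSL1 and -6.87 ± 0.21 (SE, limma adjusted p = 2.33e-09) for ACSL6.

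In both cultures ACSL1 lay between its MA and GC levels, and ACSL6 was as low as in MA. ACSL1 was 8.52, 9.11 and 8.80 in DFAT and 8.47 and 8.18 in DFOG. Every DFAT sample lay below every MA sample, and every DFOG sample lay above every GC sample. ACSL1 fell by 2.84 on the log2 scale in DFAT (SE 0.19, limma adjusted p = 9.93e-07), which is 7.16-fold. It rose by 3.95 ± 0.22 in DFOG (SE, limma adjusted p = 2.97e-07), which is 15.4-fold. The interaction was -6.78 ± 0.29 (SE, limma adjusted p = 1.53e-07).

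ACSL6 was 3.68, 3.64 and 3.02 in DFAT and 3.50 and 3.67 in DFOG. MA, DFAT and DFOG overlapped, and all lay far below GC. In the granulosa lineage it changed by -6.73 ± 0.24 (SE, limma adjusted p = 1.82e-08), a 106-fold fall on the array. The DFAT minus MA change was 0.00 ± 0.21 (SE), with a 95% interval of -0.47 to 0.46 (limma adjusted p = 0.991). The second ACSL6 probe set fell by 4.74 ± 0.21 (SE, limma adjusted p = 6.55e-08) in DFOG, from 8.24 ± 0.35 (SD, n = 3) to 3.50 ± 0.05 (SD, n = 2). In DFAT it passed with a small change from 3.94 to 3.37 (-0.57 ± 0.19, SE, limma adjusted p = 0.0376).

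Other synthetases were read as well. ACSL5, which is known from intestine and liver mitochondria, rose in both cultures, by 3.84 ± 0.22 (SE) in DFAT from 5.49, and by 1.29 ± 0.25 (SE) in DFOG from 4.81. ACSL4, which prefers arachidonic acid, rose in DFOG by 2.01 ± 0.29 (SE) from 11.02 in GC and was 10.74 in MA and 10.86 in DFAT. Between MA and GC it did not pass (limma adjusted p = 0.421). ACSL3, found on lipid droplets, rose by 1.02 ± 0.23 (SE) in DFAT and was 8.01 in GC and 8.09 in DFOG. Over the list of acyl-CoA synthetases and binding proteins, 2 of 10 rose and 4 fell in DFAT, and 3 rose and 3 fell in DFOG. The acyl-CoA binding protein DBI changed by -2.03 ± 0.14 (SE) in DFAT, and the fatty acid transporter SLC27A1 fell in both cultures, from 7.19 to 5.99 in DFAT and from 7.72 to 6.30 in DFOG.

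Among uptake and binding genes 4 of 5 fell in DFAT, while in DFOG 2 of 5 rose and none fell. The fatty acid carrier FABP4 changed by -4.38 ± 0.36 (SE) in DFAT and by 2.31 ± 0.40 (SE) in DFOG, and FABP5 by -2.22 ± 0.23 and 3.53 ± 0.26. FABP3 fell by 3.91 and lipoprotein lipase LPL by 5.42 on the log2 scale in DFAT. Of 4 measured thioesterases, which release fatty acids from coenzyme A, 2 rose and 2 fell in DFAT, and 1 rose and 2 fell in DFOG. ACOT7 rose in DFAT by 3.89 ± 0.18 (SE) from 3.90 in MA, and fell in DFOG to 8.73 from 10.50 in GC.

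**Figure D3:**
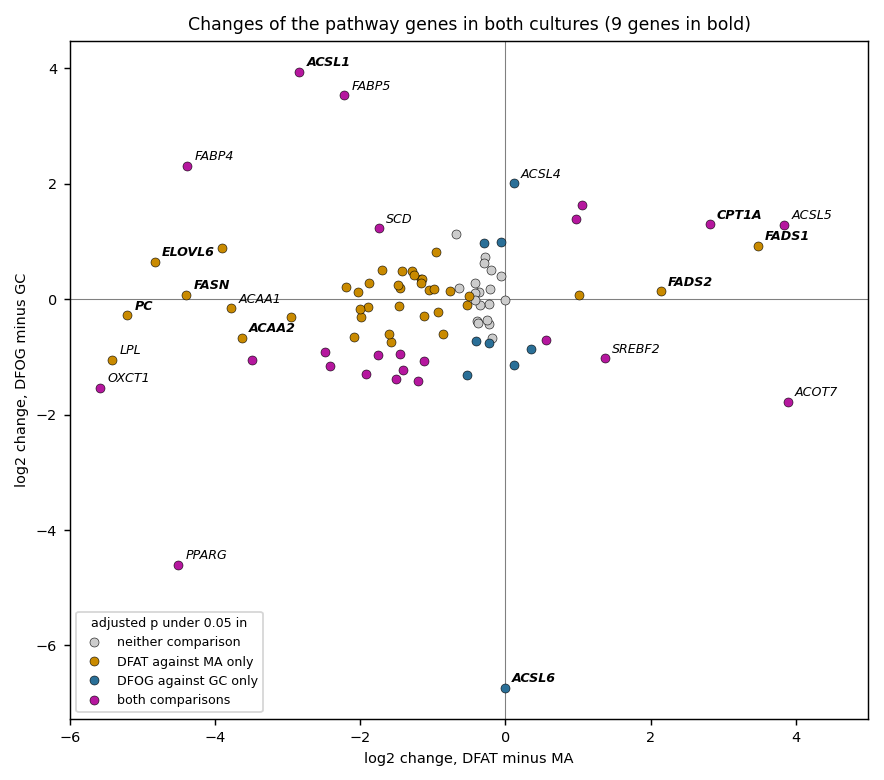
Each point is 1 of the 90 pathway genes, with its log2 change in DFAT minus MA on the horizontal axis and in DFOG minus GC on the vertical axis; colour gives the comparisons in which it passed, and the 9 genes are in bold. ACSL1, FABP4, FABP5 and SCD lie at upper left, ACOT7 and SREBF2 at lower right, and CPT1A and ACSL5 at upper right.

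Oxidation was read through its gate and its last step. CPT1A, the carnitine palmitoyltransferase of the outer mitochondrial membrane that admits long chains and is blocked by malonyl-CoA, was 7.75, 6.54 and 6.89 in MA and 9.57, 10.44 and 9.62 in DFAT. All DFAT samples exceeded all MA samples. CPT1A rose by 2.81 ± 0.32 (SE, limma adjusted p = 4.81e-05), or 7.03-fold. In GC it was 7.91, 8.02 and 8.37 and in DFOG 9.18 and 9.61. DFOG lay above GC without overlap, and the rise of 1.30 ± 0.36 (SE) passed (limma adjusted p = 0.0219).

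The CPT1A call in DFOG was lost without GC replicate 1 (limma adjusted p = 0.0538), GC replicate 2 (1.26, limma adjusted p = 0.0596), DFOG replicate 1 (1.51, limma adjusted p = 0.0565) or DFOG replicates 2 and 3 (1.08, limma adjusted p = 0.141), and with poly-A centring (0.66, limma adjusted p = 0.190). The rise was larger in DFAT by 1.52 ± 0.48 (SE, limma adjusted p = 0.0430). This difference did not pass after quantile normalization again (1.41, limma adjusted p = 0.0730) or without any one of GC replicate 2 (limma adjusted p = 0.0693), GC replicate 3 (0.0981), DFOG replicate 1 (0.165), MA replicate 2 (0.0975), MA replicate 3 (0.0936), DFAT replicate 2 (0.0839) or DFOG replicates 2 and 3 (0.0606), with values from 1.23 to 1.73. CPT1A was the only one of the 9 genes that passed upward in both cultures.

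CPT1B, the muscle-type form of the same enzyme, went the other way in DFAT, from 8.02 ± 0.92 (SD, n = 3) in MA to 6.03 ± 0.74 (SD, n = 3; limma adjusted p = 0.00846). In GC it averaged 6.03 ± 0.56 (SD, n = 3) and in DFOG 5.72 ± 0.47 (SD, n = 2), which did not pass. CPT2, the partner on the inner membrane, was 5.79 to 5.86 as a mean in all 4 groups. The carnitine carrier SLC25A20 changed by -2.0 ± 0.23 (SE) and the acetyltransferase CRAT by -1.49 ± 0.45 (SE) in DFAT. Of the 7 carnitine shuttle genes 1 rose and 3 fell in DFAT, and 1 rose and 2 fell in DFOG.

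ACAA2, the mitochondrial thiolase that cleaves medium and long chains in the last step of beta-oxidation, was 11.69, 11.29 and 11.34 in MA and 8.09, 7.23 and 8.11 in DFAT. The groups were far apart, with DFAT replicate 2 the lowest. ACAA2 changed by -3.63 ± 0.23 (SE, limma adjusted p = 6.07e-07), a 12.4-fold fall. GC stood at 8.57, 8.48 and 8.31 and DFOG at 7.77 and 7.80. DFOG was lower without overlap, but the change of -0.67 ± 0.26 (SE) did not pass (limma adjusted p = 0.0880). It passed without DFAT replicate 2 (limma adjusted p = 0.0196), which left the change itself as it was. With poly-A centring it also passed (-1.30, limma adjusted p = 0.00129), but that setting moved the median of all probe sets to -0.65. Over all settings it ranged from -1.30 to -0.41, with limma adjusted p of up to 0.490. With all arrays counted as separate samples it was -0.66 and passed (limma adjusted p = 0.0382).

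Most of the measured genes of mitochondrial beta-oxidation fell with ACAA2 in DFAT. Of 16 measured genes 12 fell and none rose, with a median of -1.29 against -0.02 over all named genes, of which 20.4% fell. After ACAA2 the largest changes were those of the isomerase ECI1 (-2.41 ± 0.25, SE), the hydroxyacyl-CoA dehydrogenase HADH (-2.19 ± 0.15) and the short-chain dehydrogenase ACADS (-1.75 ± 0.18). The subunits of the trifunctional protein, HADHA and HADHB, changed by -0.86 ± 0.20 and -1.13 ± 0.30 (SE). In DFOG 4 of 16 fell and none rose (median 0.02; 13.4% of all named genes fell), namely DECR1 (-1.23), ECI1 (-1.16), ACADS (-0.96) and ACADL (-0.94). HADHA was at -0.61 and HADHB at -0.30 there, and neither passed. With poly-A centring 7 of 16 fell in DFAT and 8 of 16 in DFOG. That centring moved the median change of all probe sets to 0.46 in DFAT and -0.65 in DFOG. In DFOG 8091 of the 23999 probe sets then passed as lower. These 2 list counts therefore cannot be told apart from that shift.

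Peroxisomal oxidation had 8 of 9 genes fall in DFAT (median -1.70) and 2 of 9 in DFOG (median -0.16). The peroxisomal thiolase ACAA1 went from 13.29 ± 0.13 to 9.52 ± 0.36 (SD, n = 3 each) in DFAT with no such difference passing between GC, at 9.38 ± 0.27 (SD, n = 3), and DFOG, at 9.22 ± 0.37 (SD, n = 2). PHYH, which starts the breakdown of phytanic acid, changed by -3.48 ± 0.29 (SE) in DFAT and -1.05 ± 0.33 (SE) in DFOG. In ketone body metabolism all 3 measured genes fell in DFAT, among them OXCT1, which activates ketone bodies for use as fuel, by 5.58 on the log2 scale, and OXCT1 alone fell in DFOG, by 1.53.

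Of the 13 measured regulators 1 rose and 4 fell in DFAT, and 4 fell in DFOG. Over all named genes 20.7% rose and 20.4% fell in DFAT, and 13.4% fell in DFOG. PPARG, the nuclear receptor that drives fat cell formation, fell in both, from 12.38 ± 0.26 to 7.88 ± 0.14 (SD, n = 3 each) in DFAT and from 9.98 ± 0.68 (SD, n = 3) to 5.38 ± 0.55 (SD, n = 2) in DFOG. SREBF1, a sterol regulatory element factor known for switching on FASN, did not pass in either comparison (-0.36 and -0.09), and neither did INSIG1, which retains that factor in the endoplasmic reticulum (-0.29 and 0.63). SREBF2, better known for cholesterol genes, rose by 1.37 ± 0.22 (SE) in DFAT and changed by -1.02 ± 0.25 in DFOG. PPARA, the receptor that induces oxidation genes in liver, went from 5.42 to 4.27 in DFAT (limma adjusted p = 0.00132), and PPARD from 9.17 to 8.41 (limma adjusted p = 0.0133). Neither passed in DFOG (0.29 and 0.14).

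**Figure D4:**
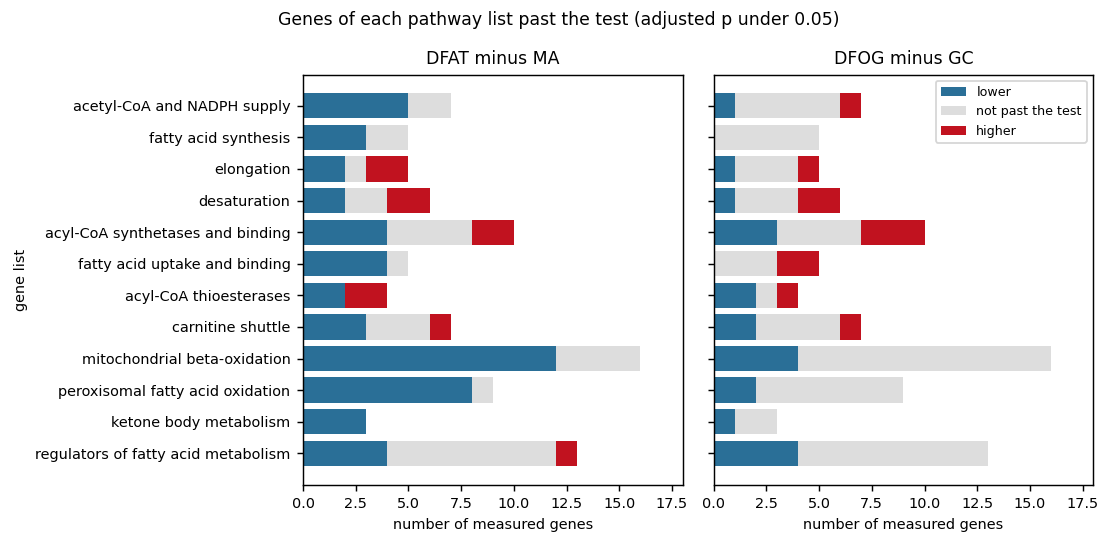
Bars give, for each of the 12 pathway lists, how many measured genes (horizontal axis) were lower, not past the test or higher in DFAT minus MA (left) and DFOG minus GC (right). Mitochondrial beta-oxidation has 12 of 16 lower on the left and 4 of 16 on the right.

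Over all 12 lists, 90 of 131 listed genes were measured. In DFAT 52 fell and 10 rose (median -1.02), where 20.4% of all named genes fell and 20.7% rose. In DFOG 21 fell and 11 rose (median -0.01), where 13.4% of all named genes fell and 17.3% rose. Of the 90 genes 12 fell in both cultures, 4 rose in both and 7 passed in opposite directions, and over all named genes these shares were 5.07%, 8.35% and 3.74%. Markers of other cell types moved as well: 5 of 6 measured macrophage markers and 2 of 5 endothelial markers fell in DFAT, and 3 of 4 stromal fibroblast markers rose there and in DFOG. The endothelial markers PECAM1 and CDH5 went from 8.77 to 7.12 and from 5.20 to 4.14 in DFAT, and PECAM1 rose from 5.08 to 6.85 in DFOG (limma adjusted p = 0.00235). INSL3, a theca cell marker, fell from 8.84 in GC to 5.83 in DFOG (limma adjusted p = 6.64e-05) and was 6.18 in MA, while the other theca marker, CYP17A1, was 4.81 in GC and did not pass. The part of these cells in the results was not tested.

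The isolated cells were then compared with each other. All 9 genes differed between MA and GC, where 40.5% of all probe sets (20.7% higher, 19.7% lower) and 49.4% of the named genes (26.8% higher, 22.6% lower) passed. The groups of none of the 9 overlapped, as was so for 52.8% of all probe sets and 62.6% of the named genes. FASN, ELOVL6, PC, ACSL1 and ACAA2 were higher in MA, by 4.22 ± 0.31, 5.47 ± 0.27, 5.37 ± 0.31, 7.27 ± 0.19 and 2.98 ± 0.23 on the log2 scale (SE). FADS1, FADS2, ACSL6 and CPT1A were lower in MA, with differences of -2.88 ± 0.28, -2.54 ± 0.47, -6.87 ± 0.21 and -1.03 ± 0.32 (SE). CPT1A had the highest limma adjusted p of the 9, 0.0241, and did not pass without GC replicate 3 (-0.90, limma adjusted p = 0.0884), MA replicate 2 (-0.78, limma adjusted p = 0.103) or MA replicate 3 (-0.95, limma adjusted p = 0.0803). Over the 90 pathway genes 55 were higher in MA and 15 higher in GC (median 1.0, against 0.09 over all named genes). SCD was higher in MA by 5.04 ± 0.27 (SE) and the second stearoyl-CoA desaturase SCD5 higher in GC, at -2.57 ± 0.35 (SE).

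After culture none of the 9 genes differed between DFAT and DFOG by limma's adjusted test, where 8.0% of all probe sets (3.70% higher, 4.31% lower) and 10.4% of the named genes (4.86% higher, 5.50% lower) passed. At an unadjusted p under 0.05, 1 of 9 passed, ACSL1, where 17.6% of all probe sets and 21.8% of the named genes did. ACSL1 was higher in DFAT by 0.48 ± 0.22 (SE) (limma adjusted p = 0.274). Its groups did not overlap, by a margin of 0.05, as was so for 30.0% of all probe sets and 34.6% of the named genes. The 95% intervals were -1.03 to 0.51 for FASN, -0.68 to 0.67 for ELOVL6, -0.32 to 1.2 for PC, -1.03 to 0.36 for FADS1 and -1.69 to 0.61 for FADS2. They were 0.01 to 0.96 for ACSL1, -0.66 to 0.38 for ACSL6, -0.31 to 1.28 for CPT1A and -0.55 to 0.59 for ACAA2. All intervals but that of ACSL1 include 0, and they leave room for differences of more than 2-fold in FASN, PC, FADS1, FADS2 and CPT1A. Without DFAT replicate 1, which had the lowest PC level, PC passed as higher in DFAT (0.86, limma adjusted p = 0.0276), 1 of 9 genes.

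Other pathway genes did separate the cultured cells, 8 of 90 being higher in DFAT and 9 higher in DFOG. Of all named genes 4.86% were higher in DFAT and 5.50% higher in DFOG. FABP4 was higher in DFAT by 4.07 ± 0.40 (SE, limma adjusted p = 6.70e-05), ACSL5 by 3.23 ± 0.25 (limma adjusted p = 1.15e-05), PPARG by 2.50 ± 0.36 (limma adjusted p = 0.000966) and SCD by 2.08 ± 0.30 (limma adjusted p = 0.00113). SCD5 and ACSL4 were higher in DFOG, at -2.35 ± 0.39 (SE, limma adjusted p = 0.00270) and -2.18 ± 0.29 (SE, limma adjusted p = 0.000555).

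**Figure D5:**
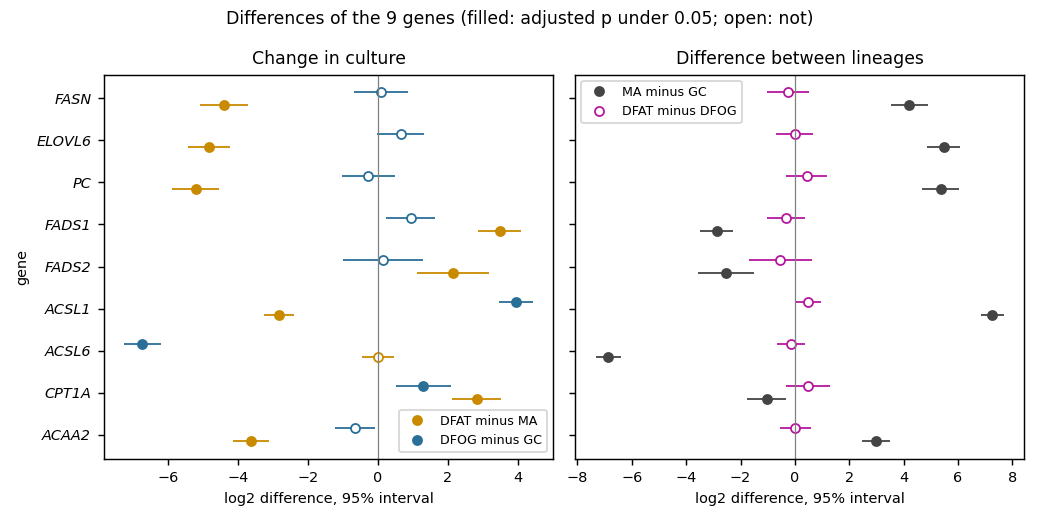
Log2 differences with 95% intervals (horizontal axis) of the 9 genes are drawn for the change in culture (left, DFAT minus MA and DFOG minus GC) and for the difference between lineages (right, MA minus GC and DFAT minus DFOG); filled points passed at an adjusted p under 0.05. All 9 points of MA minus GC are filled and none of DFAT minus DFOG.

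Whether the lineages changed by unequal amounts was tested directly. The interaction passed for 8 of the 9 genes, where 23.3% of all probe sets (11.6% higher, 11.7% lower) and 29.1% of the named genes (13.2% higher, 15.9% lower) passed. The interaction, the change in DFAT minus that in DFOG, was -4.48 ± 0.47 (SE) for FASN, that of ELOVL6 was -5.48 ± 0.41 (SE), that of PC -4.93 ± 0.46 and that of ACAA2 -2.96 ± 0.35. It was 2.55 ± 0.42 (SE, limma adjusted p = 0.00121) for FADS1 and 6.73 ± 0.32 (SE, limma adjusted p = 2.65e-07) for ACSL6. ACSL6 was at 3.45 in MA, near the low end of all probe sets, so it had little room to fall there. By its arithmetic the interaction is the DFAT minus DFOG difference less the MA minus GC difference. As none of the 9 passed between DFAT and DFOG, it largely restates their MA minus GC differences. The interaction of FADS2, 2.0 ± 0.70 (SE), did not pass (limma adjusted p = 0.0628), though it did without GC replicate 3 (2.31, limma adjusted p = 0.0481). It was 2.79 without DFOG replicate 1 but 1.21 without DFOG replicates 2 and 3. With all arrays counted as separate samples it passed (2.26, limma adjusted p = 0.0246). With the replicate number as a block on separate arrays the value was the same and passed (limma adjusted p = 0.00240), as it did with the block within each lineage (limma adjusted p = 6.98e-05). The fits on separate arrays count the near-identical DFOG replicates 2 and 3 as independent, so their p-values may be too small.

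Across the 11 samples FASN, ELOVL6, PC and ACAA2 varied together, with Pearson correlations from 0.930 to 0.990, and FADS1 varied with FADS2 (0.895) and against ACAA2 (-0.973). These samples form 4 groups, so the correlations mostly restate the group levels and carry no test. By the same measure the named genes most like each of the 9 over these samples were listed, as a description. For FASN they were DCAF8, LACC1 and ORMDL3 (0.988 to 0.989), for ELOVL6 SLA-DRB1, RXRG and UCP3 (0.990 to 0.994) and for PC ADORA1, CHPT1 and LIPE (0.992 to 0.994). For FADS1 they were SMARCA4, SNX14 and IDH2 (0.983 to 0.985) and for FADS2 MAPK8IP1, GIT1 and CDK2 (0.952 to 0.979).

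IER3, LYPLA1 and NUDT7 were most like ACSL1 (0.986 to 0.990), and INHA, HSD17B1 and GSTA1 most like ACSL6 (0.997 to 0.998). INHA averaged 14.64 in GC and 6.73 to 7.44 in the other groups, the same shape as ACSL6. For CPT1A they were DDAH1, PDLIM4 and EDC3 (0.957 to 0.969), and for ACAA2 ACADSB, PCCA and TST (0.985 to 0.988). SLA-DRB1, the gene most like ELOVL6, averaged 7.12 in MA and 4.32 to 4.55 in the other groups.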

How the data were processed

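The deposited file holds log2 expression values per probe set and array, which the authors made by RMA, per the submitters' processing notes. The sources used here give no version, settings or genome build. No further normalization was applied. The number of arrays limits the precision.

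The 124 Affymetrix control probe sets of 24123 were left out. Gene symbols came from the platform annotation, which can be old; 10069 probe sets had 1 symbol, 198 several and 13732 none, and none with several was named. The NCBI gene ID of all 9 genes carries the same symbol in RefSeq.

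Group means were fitted in 1 model over 11 samples (7 residual degrees of freedom) with limma 3.58.1 in R 4.3.3, and tested by its moderated two-sided test with Benjamini-Hochberg adjustment over 23999 probe sets. The plan was fixed for samples of which near-identical arrays count once. Scripts were tested on simulated data. Figures were drawn with matplotlib 3.10.9.

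The members and the 12 pathway and 8 marker lists were chosen with earlier results of these data known. All 9 members are named, with up to 4 list genes past the test per list and comparison, direct partners whatever their values, and the 3 named genes with the highest correlation to each member.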

Additional observations from a re-analysis of the deposited data

Results flagged for a closer look

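Groups of 3 samples are too small for a test of single outlying samples, so the results listed here are those where the change in culture differed between the fat and the granulosa lineage by limma's interaction test (DFAT minus MA change minus DFOG minus GC change, log2). Among the 9 genes the values were -4.48 for FASN, -5.48 for ELOVL6, -4.93 for PC, 2.55 for FADS1, -6.78 for ACSL1, 6.73 for ACSL6, 1.52 for CPT1A and -2.96 for ACAA2. Of these, ACSL1 passed in opposite directions in the 2 lineages, CPT1A rose in both, and FASN, ELOVL6, PC, FADS1, ACSL6 and ACAA2 passed in 1 lineage only. FADS1 and ACAA2 moved the same way in DFOG without passing (0.93 and -0.67, limma adjusted p = 0.0516 and 0.0880). The CPT1A interaction was lost in 8 of 22 other settings. As none of the 9 genes passed between DFAT and DFOG, these values largely restate the MA minus GC differences. ACSL6 was at 3.45 in MA, which left little room for a fall in the fat lineage.

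A further 6 pathway genes passed in opposite directions in the 2 lineages and in the interaction test. FABP4 (-6.69), FABP5 (-5.75) and SCD (-2.97) fell in DFAT and rose in DFOG. ACOT7 (5.67), SREBF2 (2.39) and HACD3 (1.27) rose in DFAT and fell in DFOG.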

How the results depend on the processing

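Every result on the 9 genes was recomputed under 8 other settings, without each array in turn and, after seeing the data, with a replicate block within each lineage. Of 387 values under these settings 353 kept direction and side of the threshold, as did 547 of 585 without an array or the near-identical pair. So did 64 of 75 values that came either from other probe sets or from a fit to probe sets above the median level only. Of 432 pathway list counts 380 stayed within 1.5 times the reported count and 52 moved further. Lower mitochondrial beta-oxidation genes numbered 7 in DFAT (12 as reported) and 8 in DFOG (4) with poly-A centring. That centring also moved the median change of all probe sets, to 0.46 in DFAT and -0.65 in DFOG. The cause of the exceptions was not tested.

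Same-numbered MA and DFAT arrays deviated together at r = 0.0999 to 0.168, each best with its own number, and GC and DFOG at 0.355 to 0.604, where DFOG 3 was closer to GC 2, so pairing was not assumed. With the replicate block on separate arrays 5 of the 9 genes passed between DFOG and GC in place of 3, FADS1 (0.82, limma adjusted p = 0.0474) and ACAA2 (-0.66, limma adjusted p = 0.0313) being added, as with separate arrays alone (5) and the block within lineages (5). All 9 passed in the interaction, and 2947 probe sets passed between DFAT and DFOG against 1921. The shares of all probe sets given for DFOG minus GC and the interaction belong to the reported fit. They cannot be set against these counts of the 9 genes.

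Poly-A centring gave 9359 passing probe sets for DFOG minus GC (5971 as reported), 14625 for the interaction (5593) and 19180 for MA minus GC (9713). Keeping probe sets above the median level gave 1275 for DFAT minus DFOG and left FADS2 and ACSL6 untested. Without single arrays, DFOG minus GC ranged from 3586 (without DFOG 1) to 6563 and DFAT minus DFOG from 1103 (without DFOG 1) to 2138; the 9 genes gave 0 to 1 call in the latter and 2 to 4 in the former.

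Signs turned only among values that did not pass as reported, apart from the second FADS2 probe set. ACSL6, DFAT minus MA, was 0.064 with array weights, 0.089 after quantile normalization and 0.52 with poly-A centring, and -0.12 to 0.21 without single arrays. For DFOG minus GC, FASN was -0.22 with the actin covariate, -0.0056 after quantile normalization and -0.56 with poly-A centring (-0.019 to 0.19 without single arrays). FADS2 was -0.12 on separate arrays and with either block, -0.57 with the actin covariate and -0.50 with poly-A centring (-0.65 to 0.93). For DFAT minus DFOG, ELOVL6 was 0.032 on separate arrays and with the block, 0.071 with the actin covariate, 0.055 with poly-A centring and 0.15 as the mean of its probe sets (-0.23 to 0.37). ACAA2 was -0.12 with array weights and -0.039 with the actin covariate (-0.13 to 0.31). Without single arrays FASN ranged from -0.54 to 0.11, FADS2 from -1.33 to 0.25 and ACSL6 from -0.26 to 0.072. Other probe sets gave -0.083, -0.022 and -0.061 for FADS2 in DFAT minus MA, DFOG minus GC and the interaction, -0.27 for ELOVL6 in DFOG minus GC, and 0.019 for FASN and 0.11, 0.23 and 0.27 for ELOVL6 in DFAT minus DFOG. The small number of arrays and the lack of detection calls limit what low values can show.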
